A study of Mus musculus with 73 samples.

Results

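This report concerns 8 genes that specify or maintain the trophoblast lineage of the mouse embryo: Elf5, Cdx2, Eomes, Esrrb, Tfap2c, Ets2, Fgfr2 and Sox21. They were chosen by name, and all 8 are among the 30546 genes of the deposited table. RNA was sequenced from epiblast and extraembryonic ectoderm (ExE) dissected from single mouse embryos at E6.5, in 72 libraries of 12 groups. Wild-type embryos came from a BDF1 mother and a CAST father (BDF1xCAST, 7 epiblast and 7 ExE libraries) or from the reciprocal cross (CASTxBDF1, 4 and 4). The 4 knockouts were all made in BDF1xCAST zygotes: Dnmt1, the maintenance DNA methyltransferase (3 epiblast and 3 ExE libraries), G9a-Glp, the histone H3 lysine 9 methyltransferase pair encoded by Ehmt2 and Ehmt1 (6 and 8), Rnf2, a ubiquitin ligase of Polycomb repressive complex PRC1 (6 and 5), and Eed, a core subunit of Polycomb repressive complex PRC2 (9 and 10). Cas9 mRNA and guides against several exons were injected into each zygote, so every knockout embryo carries its own edits. BDF1xCAST zygotes came from sperm injection and were carried by foster females, whereas CASTxBDF1 embryos came from natural mating, so the direction of the cross and the mode of fertilisation cannot be told apart. The labels do not say whether wild-type zygotes received a control injection.

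The ExE lies next to the epiblast and holds the trophoblast stem cells that later build the placenta. These cells divide in response to FGF4 from the epiblast, which they read through the receptor encoded by Fgfr2. Cdx2, Eomes, Elf5, Esrrb, Tfap2c, Ets2 and Sox21 encode transcription factors, several of which activate each other, and Elf5 is known for a promoter that is methylated in embryonic lineages and unmethylated in trophoblast. Eomes has a further role in the epiblast, where it is expressed at the primitive streak.

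The 250 bases before each annotated start were examined because DNA methylation acts on CG dinucleotides and Polycomb complexes are known to gather at CG-rich promoters. RefSeq (GRCm38.p6) sequences were found for 7 of the 8 genes, and Tfap2c was not among them. The letters CG were searched, which read the same on both strands, and 92.1% of the 32851 promoters of this length held at least 1. The median promoter held 6, with quartiles at 2 and 16. The following 5 promoters are shown because they span that range, and because Elf5, Eomes, Fgfr2 and Sox21 fell in Eed ExE whereas Ets2 did not pass the test in any knockout with all libraries in the fit. Each is written 5′ to 3′ on the strand of the gene, with CG in capitals.
Elf5 (chr2:103411848-103412097, plus strand, the first of its starts): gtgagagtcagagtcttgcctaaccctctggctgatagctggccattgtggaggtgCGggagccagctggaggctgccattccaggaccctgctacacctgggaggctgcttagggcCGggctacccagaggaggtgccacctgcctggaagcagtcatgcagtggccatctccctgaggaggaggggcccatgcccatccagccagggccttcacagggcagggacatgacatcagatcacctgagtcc
Fgfr2 (chr7:130266809-130267058, minus strand): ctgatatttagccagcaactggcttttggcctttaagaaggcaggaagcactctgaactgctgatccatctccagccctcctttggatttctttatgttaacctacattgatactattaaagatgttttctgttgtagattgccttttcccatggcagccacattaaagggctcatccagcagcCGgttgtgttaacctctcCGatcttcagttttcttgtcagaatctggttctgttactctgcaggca
Eomes (chr9:118477939-118478188, plus strand): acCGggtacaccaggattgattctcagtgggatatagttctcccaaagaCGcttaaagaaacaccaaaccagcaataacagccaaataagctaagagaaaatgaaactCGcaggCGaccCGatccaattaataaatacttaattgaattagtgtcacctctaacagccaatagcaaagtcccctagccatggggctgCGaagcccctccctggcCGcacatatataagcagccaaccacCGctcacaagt
Sox21 (chr14:118237031-118237280, minus strand): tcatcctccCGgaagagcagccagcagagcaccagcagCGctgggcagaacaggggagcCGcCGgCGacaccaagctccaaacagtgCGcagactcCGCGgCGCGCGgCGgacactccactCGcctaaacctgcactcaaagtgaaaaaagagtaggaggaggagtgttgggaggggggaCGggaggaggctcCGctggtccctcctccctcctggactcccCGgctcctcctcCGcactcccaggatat
Ets2 (chr16:95702157-95702406, plus strand): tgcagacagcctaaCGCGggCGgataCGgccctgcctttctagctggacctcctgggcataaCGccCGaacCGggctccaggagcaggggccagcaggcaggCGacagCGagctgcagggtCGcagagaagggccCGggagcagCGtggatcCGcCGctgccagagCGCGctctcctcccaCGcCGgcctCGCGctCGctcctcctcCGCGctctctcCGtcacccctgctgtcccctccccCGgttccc

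The promoters of Elf5 and Fgfr2 held 2 CG each, and 18.8% of all promoters held fewer. Their RefSeq starts do not match the bounds of the genes as counted. The Elf5 stretch lies inside the counted gene, which begins at chr2:103411693, and is the first only of the starts with a RefSeq sequence. The Fgfr2 stretch overlaps the counted gene, which ends at chr7:130266944. The bases before those bounds were not examined. A second annotated start of Elf5, at chr2:103423818-103424067, held 8 in the same length, as did the promoter of Eomes. The Sox21 promoter held 17 and the Ets2 promoter 25, above 76.5% and 89.3% of all promoters. Cdx2 held 13, and the starts of Esrrb held 6 and 3. These counts describe the sequence, and methylation of these promoters was not analysed here.

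Values are given as CPM, the reads of a gene per 1000000 reads of its library, where a read counts only if it covers a polymorphism between BDF1 and CAST. A gene with more polymorphisms collects more reads, so levels can be compared between libraries for 1 gene but not between genes. The total over all genes ranged from 1141414 to 17653087 reads per library with a median of 2711272, and the Rnf2 epiblast libraries were the deepest group with 5549733 to 17653087. In bulk tissue, fewer cells of a type and less RNA per cell cannot be told apart. The targeted mRNA checks the labels in part. Eed mRNA was at 2.81 to 19.8 CPM in the 19 Eed libraries against 38.1 to 248 CPM in wild-type BDF1xCAST libraries, with no overlap. Dnmt1 mRNA was at 4.70 to 11.4 CPM in Dnmt1 epiblasts against 21.9 to 40.4 CPM in wild type, but the library labelled Dnmt1 ExE embryo 1 was at 47.9 CPM, within the wild-type range of 35.7 to 62.2 CPM. Dnmt1 ExE embryo 2 was just below that range at 34.5 CPM, and only embryo 3 was far below it at 5.16 CPM. The libraries labelled G9a-Glp epiblast are not set apart by their targets. Ehmt2 was at a mean of 3.07 CPM in these 6 and in wild type, and Ehmt1 in embryos 2, 4, 5 and 7 was at 29.3, 18.96, 17.1 and 50.5 CPM against 14.5 to 39.8 CPM in wild type. In G9a-Glp ExE, Ehmt2 was below the wild-type range of 4.33 to 23.3 CPM in 6 of 8 libraries and Ehmt1 below 15.3 to 40.6 CPM in 5 of 8, and embryo 8 was within range for both (6.49 and 21.3 CPM). Rnf2 mRNA lay within the wild-type ExE range of 21.4 to 65.9 CPM in all 5 libraries labelled Rnf2 ExE, with embryos 2, 5 and 6 highest at 29.5, 39.5 and 62.7 CPM. The low end of these wild-type ExE ranges came from embryos 6 and 8, and against the other 5 wild types Rnf2 was below range in 4 of 5 Rnf2 libraries and Ehmt2 in 8 of 8 G9a-Glp libraries. In epiblast, Rnf2 mRNA was below the wild-type range of 32.8 to 56.6 CPM in 4 of 6 Rnf2 libraries (group mean 26.5 CPM). It was also below in 4 of 6 G9a-Glp, 5 of 9 Eed and 2 of 3 Dnmt1 epiblasts (means 33.3, 32.3 and 32.8 CPM). The Rnf2 epiblasts are thus little set apart by their target. Tissue identity was plain: epiblast markers summed to 3935 to 6251 CPM in wild-type BDF1xCAST epiblast and 821 to 1314 CPM in ExE, and a list of ExE markers that holds none of the 8 genes summed to 2212 to 2989 CPM in ExE and 69.2 to 132 CPM in epiblast.

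Some wild-type libraries stood apart from their group. By the chi-square statistic per gene between the counts of a pair of libraries, wild-type BDF1xCAST ExE embryos 6 and 8 differed from the other 5 by 31.0 to 37.1, whereas those 5 differed from each other by 3.25 to 6.77. Epiblast embryo 8 differed from the other 6 by 26.1 to 53.1, against 4.04 to 24.1 among these. In CASTxBDF1 ExE, embryo 2 differed from the other 3 by 18.8 to 29.4, against 7.59 to 8.70. Results against wild-type ExE are therefore given with and without embryos 6 and 8, an alternative chosen after the values were seen.

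In the wild type, 6 of the 8 regulators were higher in ExE than in epiblast of the BDF1xCAST cross and 1 did not differ by the test. Cdx2, with low counts in ExE and none in epiblast, did not pass the filter on low counts and was not tested. All genes past the filter on low counts served as background: 27.9% of them were called higher in ExE and 28.7% lower, at an adjusted p below 0.05 from edgeR's quasi-likelihood test. The median over the 7 genes tested was a log2 difference of 5.73, against -0.02 over all genes. Elf5 had 171, 265 and 363 CPM in ExE (lowest, median and highest of 7) and 0, 1.19 and 3.81 CPM in epiblast. The groups were far apart, and Elf5 showed the largest fitted difference among the 7 genes tested (log2 difference 7.82 ± 0.36 SE, edgeR adjusted p = 9.8e-12). Tfap2c, a regulator that acts early in trophoblast formation, had 150, 153 and 561 CPM in ExE and 0.660, 2.52 and 19.1 CPM in epiblast (log2 difference 5.87 ± 0.51 SE, edgeR adjusted p = 2.6e-08). Esrrb, an orphan nuclear receptor needed for trophoblast stem cell self-renewal, had 13.0, 35.4 and 51.0 CPM in ExE and 0, 0 and 5.34 CPM in epiblast (log2 difference 5.73 ± 0.60 SE, edgeR adjusted p = 2.8e-07). Neither gene overlapped between the tissues.

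Sox21, a SOXB transcription factor, had 6.70, 12.4 and 23.7 CPM in ExE but 1 read in total over all 7 wild-type epiblasts. Its pooled read ratio was 244, with an exact 95% interval of 43.4 to 9654 that covers counting error only. Cdx2, the homeobox factor that sets up trophectoderm, had 3.29, 4.58 and 8.93 CPM in ExE and 0 reads in all 7 epiblasts. With a floor of 3 reads over the epiblast group, Cdx2 was at least 29.1-fold higher in ExE. These are low counts, since Cdx2 rested on 10 to 26 reads in each ExE library.

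Fgfr2 had 80.3, 91.5 and 178 CPM in ExE and 6.60, 9.28 and 17.4 CPM in epiblast (log2 difference 3.42 ± 0.24 SE, edgeR adjusted p = 1.5e-09). Ets2, an ETS factor that supports trophoblast stem cells, had 40.2, 57.7 and 129 CPM in ExE and 13.4, 16.9 and 30.5 CPM in epiblast (log2 difference 1.88 ± 0.25 SE, edgeR adjusted p = 4.6e-06). Neither overlapped between tissues, although Ets2 was clearly transcribed in both. Eomes differed from the other 7 in that its groups overlapped: it had 80.3, 107 and 159 CPM in ExE and 23.8, 97.4 and 199 CPM in epiblast (log2 difference 0.28 ± 0.32 SE, edgeR adjusted p = 0.48). In the CASTxBDF1 cross, Eomes was at 140, 48.6, 110 and 103 CPM in ExE and 121, 110, 72.2 and 46.3 CPM in epiblast, and these overlapped as well. Without wild-type ExE embryos 6 and 8 the same 6 genes were called higher and Eomes was not (edgeR adjusted p = 0.73).

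In ExE of the knockouts, 5 of the 8 regulators fell in Eed, 2 fell in Rnf2, 1 fell in G9a-Glp and none passed the test in Dnmt1. No regulator rose past the threshold in any of the 4 with all libraries in the fit, although in G9a-Glp Cdx2 did so without wild-type embryo 3 (log2 change 0.90, edgeR adjusted p = 0.041) and Ets2 without wild-type embryo 6 (0.52, 0.048). The background differed widely between knockouts: 18.1% of 10058 genes were called lower and 22.7% higher in Eed ExE, 9.99% and 12.2% of 9506 in Rnf2, 6.66% and 8.50% of 9228 in G9a-Glp, and 9.96% and 8.54% of 9749 in Dnmt1. The median log2 change of the 8 genes was -1.08 in Eed, -0.48 in Rnf2, -0.11 in G9a-Glp and 0.11 in Dnmt1, beside medians over all genes of 0.02, -0.03, 0.01 and -0.01. The 4 comparisons share the same 7 wild-type libraries.

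Without wild-type embryos 6 and 8, the 5 regulators lower in Eed ExE were the same, Elf5, Eomes, Esrrb, Fgfr2 and Sox21, but the calls in the other knockouts changed. In Rnf2, Fgfr2 remained lower (log2 change -0.50, edgeR adjusted p = 0.025), Esrrb was added (-1.07, 0.024) and Eomes was lost (-0.65, 0.080). In G9a-Glp, the fall of Fgfr2 was lost (log2 change -0.37, edgeR adjusted p = 0.13) and Ets2 was called higher (0.68, 0.0067). In Dnmt1, Eomes was called higher (log2 change 0.58, edgeR adjusted p = 0.036). No regulator was thus called both with and without these 2 libraries in G9a-Glp or Dnmt1 ExE, and 1 was in Rnf2.

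**Figure D1:**
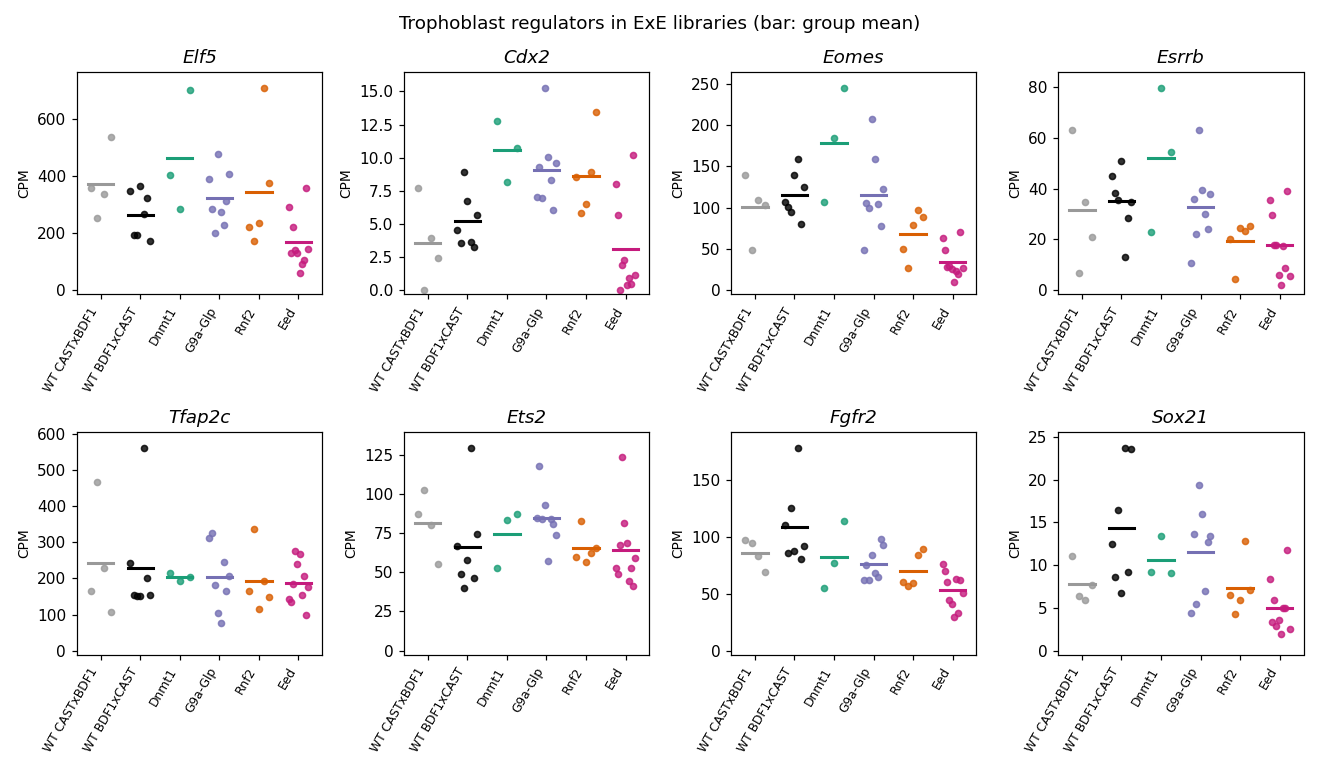
CPM of each of the 8 genes in every ExE library (points) by genotype, with the group mean as a bar and a separate linear axis for each gene. The 10 Eed libraries lie below all 7 wild-type BDF1xCAST libraries for Eomes and Fgfr2, while Tfap2c and Ets2 overlap across all 6 groups.

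Eomes showed the largest fall in Eed ExE. The T-box factor, needed to keep trophoblast stem cells, had 9.77, 27.5 and 71.2 CPM in Eed ExE (lowest, median and highest of 10) against 80.3, 107 and 159 CPM in wild type. All 10 Eed libraries were below the lowest wild-type library, and the group mean was 30.0% of the wild-type mean (log2 change -1.93 ± 0.26 SE, edgeR adjusted p = 8.5e-06). In Rnf2 ExE, Eomes was at 49.9, 26.8, 79.0, 97.4 and 89.3 CPM in embryos 2, 4, 5, 6 and 7, with 3 of 5 below the wild type (log2 change -0.82 ± 0.27 SE, edgeR adjusted p = 0.038). That call was lost without Rnf2 embryo 2 or 4 and without wild-type embryo 4, 6 or 8 (edgeR adjusted p of 0.055 to 0.10). In Dnmt1 ExE it was at 106, 184 and 245 CPM and in G9a-Glp ExE at 48.8, 105 and 207 CPM (lowest, median and highest of 8). Neither passed the test (edgeR adjusted p of 0.33 and 0.87). The gene overlaps Gm33408 on the genome and the use of strand in counting is not stated, so reads of the pair cannot be told apart.

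Elf5, an ETS factor that reinforces trophoblast stem cell fate, had 59.4, 135 and 359 CPM in Eed ExE against 171, 265 and 363 CPM in wild type. Of the 10 Eed libraries 7 were below the lowest wild type and the other 3 lay within its range (log2 change -0.84 ± 0.26 SE, edgeR adjusted p = 0.013). The other 3 knockouts had means above the wild-type mean of 265 CPM without passing the test. Dnmt1 embryos were at 404, 285 and 700 CPM, of which 2 exceeded every wild-type library (log2 change 0.56 ± 0.26 SE, edgeR adjusted p = 0.16). Rnf2 embryos were at 223, 173, 234, 708 and 374 CPM (log2 change 0.32 ± 0.29 SE, edgeR adjusted p = 0.45), and G9a-Glp embryos had a median of 298 CPM with a range of 200 to 478 CPM (log2 change 0.23 ± 0.19 SE, edgeR adjusted p = 0.44).

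Cdx2 moved in opposite directions among the knockouts without passing the test in any. Eed ExE had 0, 1.54 and 10.2 CPM (lowest, median and highest of 10), and 7 of the 10 were below the lowest wild-type value of 3.29 CPM while embryo 9 was above the highest of 8.93 CPM (log2 change -0.99 ± 0.54 SE, edgeR adjusted p = 0.15). Without embryo 9 the fall passed the threshold (log2 change -1.38, edgeR adjusted p = 0.041). Cdx2 means in the other knockouts were above the wild-type mean of 5.21 CPM: 10.6 CPM in Dnmt1, 9.08 CPM in G9a-Glp and 8.65 CPM in Rnf2 (edgeR adjusted p of 0.17, 0.080 and 0.12). At 0 to 37 reads per library outside the Rnf2 group, which is deeper, this gene was measured with little precision.

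Esrrb had 1.95, 17.5 and 38.9 CPM in Eed ExE against 13.0, 35.4 and 51.0 CPM in wild type, with 4 of 10 libraries below the wild-type range (log2 change -1.18 ± 0.38 SE, edgeR adjusted p = 0.018). In Rnf2 ExE, Esrrb was at 20.3, 4.58, 24.4, 23.2 and 25.3 CPM, and embryo 4 alone was below the wild-type range (log2 change -0.92 ± 0.36 SE, edgeR adjusted p = 0.078). The lowest wild-type value is that of embryo 6, and without it the range starts at 28.3 CPM, which puts 5 of 5 Rnf2 and 7 of 10 Eed libraries below it. Dnmt1 embryos were at 22.9, 79.5 and 54.2 CPM and G9a-Glp embryos at 10.7, 33.1 and 63.1 CPM (lowest, median and highest), with edgeR adjusted p of 0.61 and 0.74.

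Sox21 had 1.95, 4.29 and 11.8 CPM in Eed ExE against 6.70, 12.4 and 23.7 CPM in wild type, with 8 of 10 libraries below the lowest wild type (log2 change -1.71 ± 0.33 SE, edgeR adjusted p = 0.00038). In Rnf2 ExE it was at 6.52, 4.29, 5.95, 12.8 and 7.14 CPM, with 3 of 5 below the wild type, and it just missed the threshold (log2 change -1.02 ± 0.36 SE, edgeR adjusted p = 0.050). Dnmt1 and G9a-Glp ExE had means of 10.6 and 11.5 CPM against 14.4 CPM in wild type and did not pass (edgeR adjusted p of 0.28 and 0.46). LOC105245869 overlaps Sox21 on the genome, so the reads of these genes cannot be told apart either.

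Fgfr2 was called in more knockouts than any other of the 8 genes. Eed ExE had 29.7, 55.3 and 75.8 CPM against 80.3, 91.5 and 178 CPM in wild type, and all 10 libraries were below the lowest wild type (log2 change -1.19 ± 0.19 SE, edgeR adjusted p = 5.0e-05). In Rnf2 ExE Fgfr2 was at 60.5, 56.4, 59.5, 83.6 and 89.3 CPM, with 3 of 5 below (log2 change -0.68 ± 0.19 SE, edgeR adjusted p = 0.021). In G9a-Glp ExE it had 61.7, 71.4 and 98.0 CPM, with 5 of 8 below (log2 change -0.56 ± 0.18 SE, edgeR adjusted p = 0.040). Dnmt1 embryos were at 55.0, 77.2 and 114 CPM, with 2 of 3 below (log2 change -0.65 ± 0.26 SE, edgeR adjusted p = 0.11). The G9a-Glp call is fragile: it was lost in 9 of 15 fits that left out 1 library (without wild-type embryo 3, 6 or 8 or G9a-Glp embryo 1, 2, 3, 4, 7 or 8), with edgeR adjusted p up to 0.091. The Rnf2 call was lost without Rnf2 embryo 2, 4 or 5 (edgeR adjusted p of 0.050 to 0.064).

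Tfap2c and Ets2 did not pass the test in ExE of any knockout with all libraries. Tfap2c had 99.5, 180 and 277 CPM in Eed ExE against 150, 153 and 561 CPM in wild type, and its group means were 188 to 204 CPM in the 4 knockouts against 230 CPM in wild type (edgeR adjusted p of 0.18 to 0.61). Ets2 had 41.3, 55.9 and 124 CPM in Eed ExE against 40.2, 57.7 and 129 CPM in wild type, and group means of 63.9 to 84.3 CPM against 66.1 CPM (edgeR adjusted p of 0.39 to 0.89). The log2 change in Eed was -0.43 ± 0.25 SE for Tfap2c and -0.22 ± 0.23 SE for Ets2. Wild-type embryo 6 held the most of both, 561 CPM of Tfap2c and 129 CPM of Ets2, and without embryos 6 and 8 the log2 change in Eed was -0.057 for Tfap2c and 0.17 for Ets2. A p above the threshold does not show that these genes were unaffected.

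**Figure D2:**
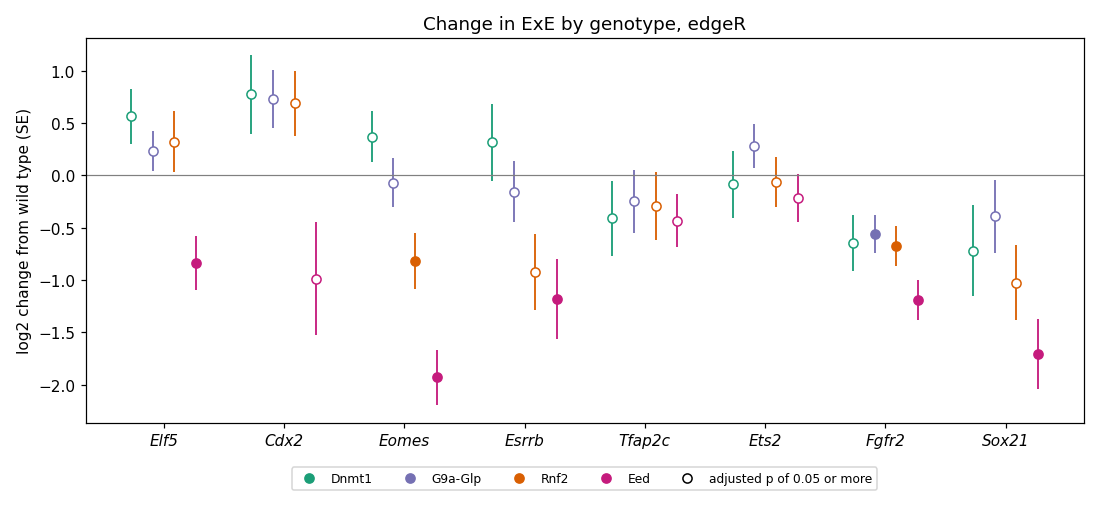
Fitted log2 change from wild-type BDF1xCAST ExE for each gene and knockout with its standard error (bars), filled where the edgeR adjusted p was below 0.05. Eed has 5 filled points, all below 0, Rnf2 has Eomes and Fgfr2, G9a-Glp has Fgfr2 and Dnmt1 has none.

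The 5 calls in Eed ExE were the same number or more in each of 17 fits that left out 1 library, with a range of 5 to 6. They depended on the scaling: with library totals in place of TMM factors, the median of all genes moved up by 0.17 log2 and Elf5 and Esrrb were no longer called, whereas Eomes, Fgfr2 and Sox21 were. The 2 calls in Rnf2 ExE were less stable, with 0 to 3 calls over 12 such fits and 0 without embryos 2, 5 and 6, whose Rnf2 mRNA was highest. In Dnmt1 ExE, where edgeR called 0 of 8 genes, 2 had an unadjusted p below 0.05 (Elf5 and Fgfr2), and DESeq2 called 0 as well. With library totals, which moved the median of all genes there up by 0.25 log2, Elf5 was called higher.

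The knockouts were then compared with each other in a joint fit of 11743 genes per contrast, since a call in Eed and none elsewhere is not a test of the difference. Over 6 pairs of knockouts and 8 genes in ExE, 13 differences passed, and each of them was a lower level in Eed. Background calls in either direction were 35.0% for Eed against G9a-Glp, 20.0% for Eed against Dnmt1 and 13.0% for Eed against Rnf2. In the pairs without a call they were 16.5% for Rnf2 against G9a-Glp, 8.16% for Rnf2 against Dnmt1 and 5.88% for G9a-Glp against Dnmt1. Eed was lower than G9a-Glp for 6 of the 8: Eomes (log2 difference -1.84, edgeR adjusted p = 2.2e-06), Cdx2 (-1.69, 0.0016), Sox21 (-1.30, 0.0017), Elf5 (-1.05, 0.0019), Esrrb (-0.998, 0.033) and Fgfr2 (-0.61, 0.0082). Against Dnmt1 it was lower for Eomes (log2 difference -2.30, edgeR adjusted p = 1.5e-05), Cdx2 (-1.76, 0.020), Esrrb (-1.50, 0.024) and Elf5 (-1.41, 0.0037). Against Rnf2 it was lower for Cdx2 (log2 difference -1.67, edgeR adjusted p = 0.011), Elf5 (-1.15, 0.0084) and Eomes (-1.11, 0.014). Eed and Rnf2 ExE thus differed in Cdx2, Elf5 and Eomes, while Fgfr2, Esrrb, Sox21, Tfap2c and Ets2 did not pass the test of that difference. The Eed against Rnf2 differences rested on few Rnf2 libraries: without Rnf2 embryo 6 Elf5 and Eomes were lost (edgeR adjusted p of 0.12 and 0.063), and without embryo 7 Cdx2 and Eomes were lost (0.051 and 0.052). Without Dnmt1 embryo 3, the Eed against Dnmt1 differences of Elf5, Cdx2 and Esrrb were lost (0.094, 0.073 and 0.085), as was that of Cdx2 without embryo 1 (0.094) and that of Esrrb without embryo 2 (0.20).

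Markers of other cells moved with these results. Background calls of higher and lower level were 22.7% and 18.1% in Eed ExE and 12.2% and 9.99% in Rnf2. Epiblast markers in ExE summed to 538 to 1085 CPM in Eed and 700 to 1074 CPM in Rnf2, and no library of either exceeded the wild-type maximum of 1314 CPM. One listed gene, Utf1, was called higher in wild-type ExE than in epiblast, while Pou5f1 was at 0 reads in that ExE. Utf1 rose and Dnmt3b and L1td1 fell in both Eed ExE, of 6 tested, and Rnf2 ExE, of 5. The sum therefore cannot show how much epiblast was carried over. Visceral endoderm markers (14 genes) summed to 41.6 to 94.5 CPM in Eed and 26.1 to 55.9 CPM in Rnf2 against 13.2 to 29.3 CPM in wild type, and of the 4 tested Dab2, Rbp4 and Amn rose in Eed. Fgb was at 0 reads in all 3 groups, and Afp, a defining marker, was at a mean of 3.64 CPM in Eed. Markers of decidua and blood (7 of 10 genes are in the table) summed to 2.28 to 13.3 CPM in Eed and 2.44 to 7.54 CPM in Rnf2 against 0.667 to 1.86 CPM in wild type. Des, the only one of them tested in Eed, rose, while Dcn and Col3a1 were at 0 reads. The ExE marker list summed to 3411 to 10720.5 CPM in Eed and 2631 to 3705 CPM in Rnf2 against 2212 to 2989 CPM in wild type, with 6 of its 12 tested genes higher and 2 lower in Eed. Differentiated trophoblast markers (16 of 19 listed genes are in the table) summed to 36.1, 465 and 1262 CPM in wild-type ExE and to 560, 3241 and 5835 CPM in Eed ExE. The 6 genes Gcm1, Prl3d1, Prl3b1, Ovol2, Cts7 and Ctsq were at 0 reads in all Eed ExE libraries, and most of the sum was Plac1, a placental gene, at a mean of 2489.5 CPM in Eed against 379 CPM in wild type. Of the 6 listed genes tested, Dlx3, Plac1, Flt1 and Ascl2 rose in Eed and none fell. Eed embryos 1, 2 and 9 had the lowest sums of the Eed group (577, 560 and 578 CPM, within the wild-type range) and its highest levels of Eomes (63.0, 48.7 and 71.2 CPM), Esrrb (35.7, 29.8 and 38.9 CPM) and Cdx2 (8.01, 5.67 and 10.2 CPM). Even so, Eomes and Fgfr2 (75.8, 69.9 and 61.7 CPM) were below every wild-type library in those 3 embryos. Not all regulators followed: Elf5 and Sox21 were highest in embryos 1 and 9 but not high in embryo 2. Tfap2c was at its lowest of the Eed group in those 3 embryos, and Ets2 was below its group median there. Rnf2 ExE sums were 337 to 2388 CPM, and embryo 4 with the highest sum had the lowest Eomes and Esrrb of that group but its highest Tfap2c. Rnf2 embryo 6, with a sum of 1274 CPM, had the highest Eomes of that group (97.4 CPM). G9a-Glp ExE embryos 1, 2 and 8 had sums of 2517, 1799 and 2150 CPM, also above the wild-type maximum. Eomes was lowest of the G9a-Glp group in embryo 1 (48.8 CPM). In embryos 2 and 8 it was near that group's median of 105 CPM, within the wild-type range. The part of differentiated or other cells in the fall of the regulators was not tested.

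**Figure D3:**
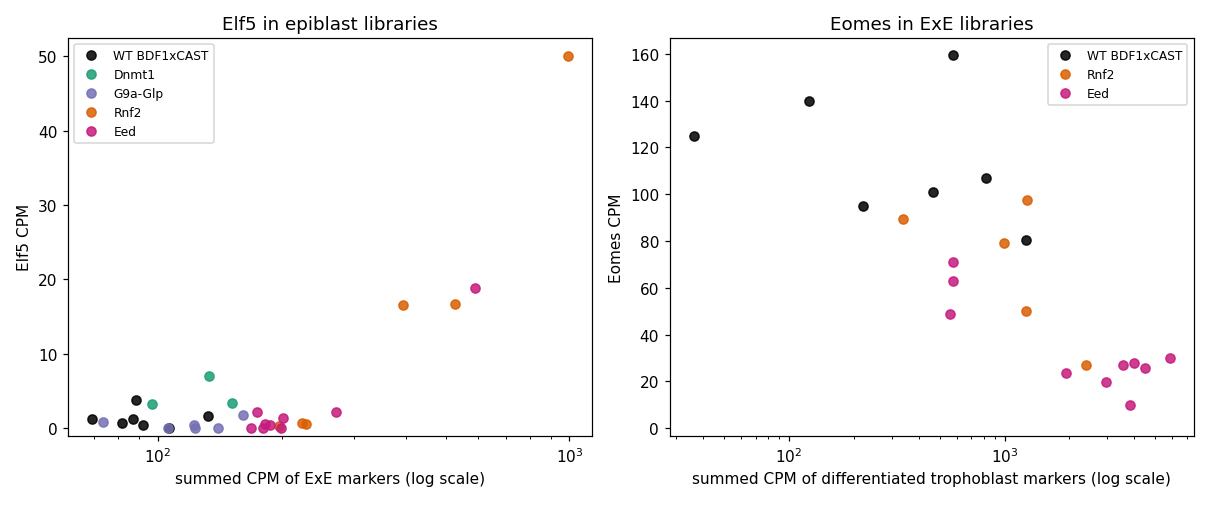
Left: Elf5 in each epiblast library against the summed CPM of ExE markers, on a log axis, for the 5 BDF1xCAST genotypes. Right: Eomes in each ExE library against the summed CPM of differentiated trophoblast markers, on a log axis, for wild type, Rnf2 and Eed. Elf5 is above 16 CPM in the 4 epiblasts with the most ExE marker reads, and the 7 Eed ExE libraries with sums above the wild-type maximum of 1262 CPM have at most 29.96 CPM of Eomes.

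Other genes of the trophoblast network were examined as a list of 17, of which 16 are in the table and none is one of the 8. Background calls of higher and lower level were 22.7% and 18.1% in Eed ExE and 12.2% and 9.99% in Rnf2. They were 8.50% and 6.66% in G9a-Glp and 8.54% and 9.96% in Dnmt1. Background shares are not given for the fits without wild-type embryos 6 and 8, here and for the next lists. In Eed ExE, 2 of the 12 tested rose and 7 fell, with a median log2 change of -0.60. Gata2 (log2 change 2.92, edgeR adjusted p = 0.00043), a GATA factor of later trophoblast, and Arid3a (1.59, 0.00047) were the 2 that rose. Nr0b1 (log2 change -1.92, edgeR adjusted p = 0.00053) and Zfp42 (-1.88, 2.7e-07), which are both pluripotency-associated factors also expressed in ExE, fell most, and Sox2, Satb1, Sall4, Tet1 and Yap1 fell as well. In Rnf2 ExE 0 rose and 4 of 11 fell, led by Nr0b1 (log2 change -1.22, edgeR adjusted p = 0.013) and Sall4 (-0.97, 7.8e-05). The counts were 0 and 0 of 11 in G9a-Glp, and 1 and 1 of 12 in Dnmt1, where Tead4 rose (log2 change 1.17, edgeR adjusted p = 0.038) and Sall4 fell (-0.97, 0.0011). Without wild-type embryos 6 and 8, 2 rose and 4 fell in Eed (Sox2, Tet1 and Yap1 were lost), 1 and 4 in Rnf2, 1 and 1 in G9a-Glp and 3 and 1 in Dnmt1.

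The FGF list holds ligands, receptors, adaptors and targets of the pathway that Fgfr2 feeds. Beside its counts stand the background calls of higher and lower level, 22.7% and 18.1% in Eed ExE and 12.2% and 9.99% in Rnf2. In G9a-Glp these were 8.50% and 6.66%, and in Dnmt1 8.54% and 9.96%. In Eed ExE 1 of 12 tested rose and 4 fell (median log2 change -0.71). The kinase Mapk3 rose (log2 change 1.11, edgeR adjusted p = 0.00055). Dusp6, a phosphatase induced by ERK signalling, fell (log2 change -2.19, edgeR adjusted p = 0.00066), as did Etv5, an ETS factor induced by FGF (-1.91, 0.00031), the inhibitor Spred1 and the receptor Fgfr4. In Rnf2 ExE 0 rose and 4 of 12 fell: Spry4 (log2 change -1.94, edgeR adjusted p = 0.017), Etv5 (-1.67, 0.0051), Spred1 and Dusp6. In G9a-Glp ExE Mapk3 rose (log2 change 0.82, edgeR adjusted p = 0.049) and 0 fell. In Dnmt1 ExE 2 rose and 1 fell: the adaptor Frs2 (log2 change 1.22, edgeR adjusted p = 0.010) and Mapk3 rose, and Spred1 fell (-1.14, 0.044). Dusp6, Etv5 and Spred1 were thus called lower in both Polycomb knockouts, as was Fgfr2. Without wild-type embryos 6 and 8, Fgfr4 was lost in Eed and Dusp6 in Rnf2, and Fgfr1 was added in Dnmt1 as higher. The median in Eed was then -0.36.

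ExE and epiblast also signal to each other through Nodal and BMP. The same background applies: 22.7% of all genes were called higher and 18.1% lower in Eed ExE, and 12.2% and 9.99% in Rnf2. For G9a-Glp it was 8.50% and 6.66%, and for Dnmt1 8.54% and 9.96%. In Eed ExE 3 of 10 genes of that loop rose and 2 fell: Id3 (log2 change 3.22, edgeR adjusted p = 1.7e-08) and Nodal (2.51, 0.0058) rose most, with Id1, and Bmp4 (-2.38, 7.5e-05), the BMP ligand made by ExE, fell together with Bmp8b (-0.48, 0.016). Rnf2 ExE showed Id3 higher (log2 change 2.23, edgeR adjusted p = 8.9e-05) and Bmp4 (-1.46, 0.029) and Bmp8b (-0.48, 0.048) lower among 9 tested. In G9a-Glp and Dnmt1 ExE 0 of 10 and 0 of 11 passed. Without wild-type embryos 6 and 8 Bmp8b was lost in Eed and Rnf2, and Bmp4 was called lower in Dnmt1.

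In epiblast, 1 regulator fell in each knockout and none rose past the threshold with all libraries and the filter on low counts, but most of the 8 could not be tested there. Eomes, Ets2 and Fgfr2 passed the filter on low counts in every comparison and Tfap2c did so in Rnf2. Background calls of lower level were 16.5% of 9820 genes in Eed, 13.0% of 10134 in Rnf2, 15.0% of 9562 in G9a-Glp and 7.16% of 10248 in Dnmt1, and those of higher level were 19.2%, 18.0%, 19.6% and 6.94%.

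Eomes fell in the epiblast of both Polycomb knockouts. Eed epiblasts had 15.1, 28.3 and 91.2 CPM (lowest, median and highest of 9) against 23.8, 97.4 and 199 CPM in wild type, and the ranges overlapped, with 3 of 9 below the wild type (log2 change -1.55 ± 0.37 SE, edgeR adjusted p = 0.0029). Rnf2 epiblasts had 13.4, 27.8 and 66.4 CPM, with 2 of 6 below (log2 change -1.65 ± 0.42 SE, edgeR adjusted p = 0.0075). The wild-type minimum is that of embryo 2 alone, and the next lowest was 52.4 CPM, above 7 of 9 Eed and 5 of 6 Rnf2 libraries. Dnmt1 epiblasts were at 238, 223 and 74.5 CPM and G9a-Glp epiblasts had 25.7, 67.9 and 125 CPM, and neither passed (edgeR adjusted p of 0.43 and 0.35). Both Polycomb knockouts were lower than Dnmt1 in the joint fit of 12207 genes per contrast (log2 difference -2.24 and edgeR adjusted p = 0.0023 for Eed, -2.38 and 0.0012 for Rnf2), where background calls were 5.11% and 12.5%. The Rnf2 fall of Eomes was called with or without the 3 Rnf2 epiblasts richest in ExE markers.

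Primitive streak markers were set beside Eomes. The 11 listed genes in the table summed to 72.3, 551 and 1644 CPM in wild-type epiblast, and the library with the lowest sum, embryo 2, had the lowest Eomes while embryo 8, with the highest, had the highest Eomes. Sums were 200 to 702 CPM in Eed and 73.4 to 390 CPM in Rnf2. Mixl1 and T, markers of the streak, fell in Eed epiblast, 2 of 8 tested. Mixl1 fell in Rnf2, 1 of 8 tested, and no listed streak gene rose in either. In G9a-Glp epiblast, where Eomes was not called, Mesp1, Lefty2 and T fell, 3 of 9 tested, and in Dnmt1 0 of 10 passed. Background calls of lower level were 16.5% in Eed, 13.0% in Rnf2, 15.0% in G9a-Glp and 7.16% in Dnmt1. Wild-type embryo 8 also held 663 CPM of visceral endoderm markers against 20.1 to 181 CPM in the other 6. Without it Eomes was still called lower in both Polycomb knockouts. The part of embryo stage in these differences was not tested.

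Fgfr2 fell in Dnmt1 and G9a-Glp epiblast. Dnmt1 embryos were at 2.81, 3.50 and 4.03 CPM, all below the wild-type range of 6.60 to 17.4 CPM (log2 change -1.79 ± 0.45 SE, edgeR adjusted p = 0.018). That rests on 4 to 6 reads per library, and was lost without Dnmt1 embryo 1 or 2 (edgeR adjusted p of 0.082 and 0.052). G9a-Glp embryos had 2.14, 5.71 and 8.04 CPM, with 4 of 6 below (log2 change -1.04 ± 0.33 SE, edgeR adjusted p = 0.023), which was lost without embryo 4 or 7 (0.055 and 0.053). The unedited CASTxBDF1 epiblasts were at 7.05, 9.53, 6.97 and 1.09 CPM, a mean of 6.16 CPM near that of G9a-Glp (5.30 CPM), from 3 to 25 reads each, and did not pass the test against BDF1xCAST (log2 difference -0.70 ± 0.44 SE, edgeR adjusted p = 0.76). Fgfr2 was at 7.92 ± 3.58 CPM in Eed (SD, n = 9) and 9.53 ± 7.43 CPM in Rnf2 (SD, n = 6) against 10.4 ± 3.91 CPM in wild type (SD, n = 7) and did not pass in either. Ets2 had group means of 18.6 to 23.65 CPM in the 5 BDF1xCAST genotypes, and its edgeR adjusted p was 0.56 to 0.88 in the knockouts.

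**Figure D4:**
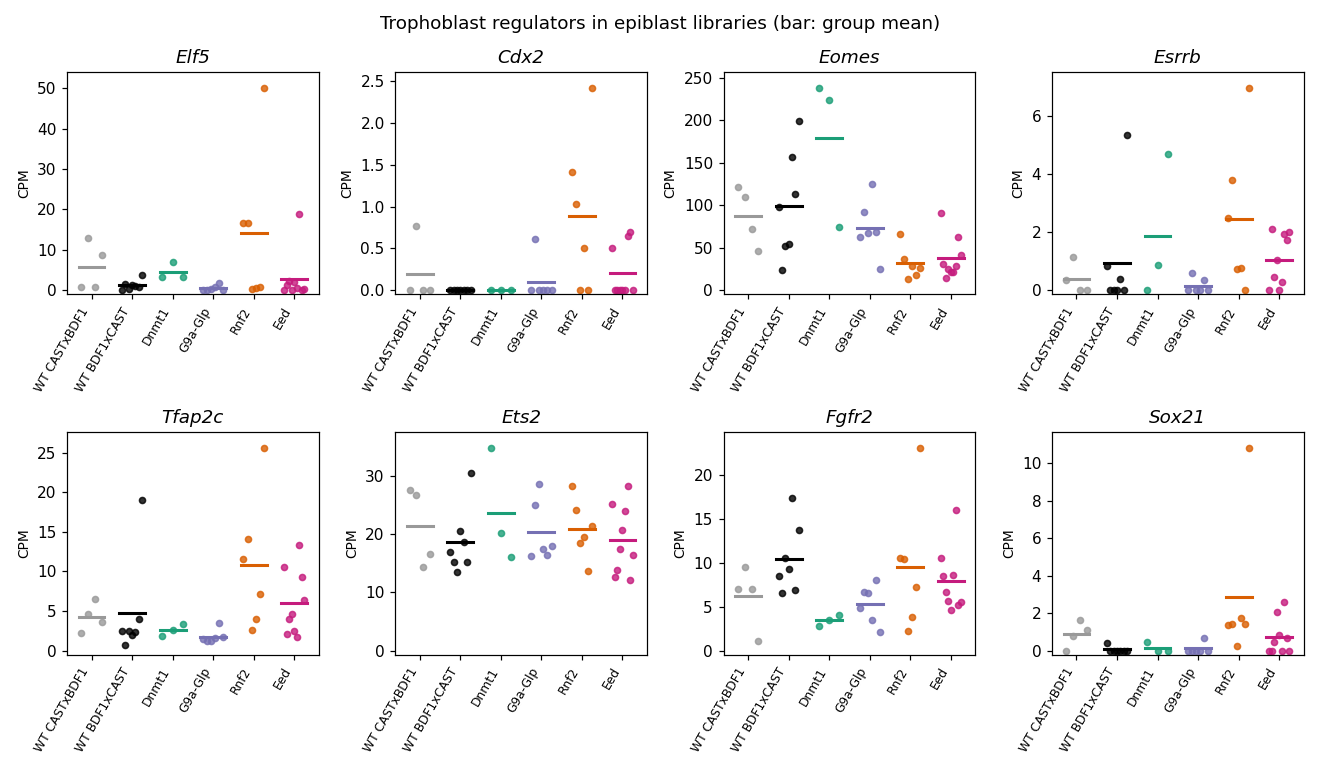
CPM of each of the 8 genes in every epiblast library (points) by genotype, with the group mean as a bar and a separate linear axis for each gene. Elf5 and Sox21 peak in Rnf2 embryo 8 at 50.0 and 10.8 CPM, and Eomes and Ets2 are present in every group.

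The remaining regulators were at or near 0 in most epiblasts, and the exceptions were concentrated in a few Rnf2 libraries. Elf5 was at 16.5, 16.7, 0.246, 0.504, 0.721 and 50.0 CPM in Rnf2 embryos 1, 2, 3, 5, 6 and 8, against 0 to 3.81 CPM in wild type. Embryos 1, 2 and 8 were above the wild type and the other 3 within it. The same 3 embryos had the most Tfap2c (11.6, 14.1 and 25.6 CPM, against 2.58 to 7.21 CPM in the others), Esrrb (2.49, 3.80 and 6.96 CPM against 0 to 0.755 CPM) and Cdx2 (1.42, 1.03 and 2.41 CPM against 0 to 0.504 CPM). Sox21 was above 1 CPM in 5 of 6 Rnf2 epiblasts, with 10.8 CPM in embryo 8, and rested on 138 reads over the group against 1 read in wild type (pooled read ratio 41.5, exact 95% interval 7.32 to 1650, counting error only). The unedited CASTxBDF1 epiblasts held 0, 0.763, 1.64 and 1.09 CPM of Sox21, also above most BDF1xCAST wild types.

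ExE markers were also highest in embryos 1, 2 and 8. They summed to 393, 528 and 992 CPM in Rnf2 embryos 1, 2 and 8 and to 197, 230 and 223 CPM in embryos 3, 5 and 6, all above the wild-type maximum of 132 CPM. Embryo 8 also had the fewest epiblast marker reads of the group, 2259 CPM against a wild-type minimum of 3935 CPM. As a share of the level in ExE of the same genotype, the summed markers in epiblast were at 13.6% in Rnf2 and 3.66% in wild type, Elf5 at 4.12% and 0.485%, Tfap2c at 5.64% and 2.06%, and Sox21 at 38.7% and 0.419%. With the filter on low counts, edgeR tested Tfap2c alone of these and did not call it (log2 change 1.39 ± 0.63 SE, edgeR adjusted p = 0.10), but did so without wild-type embryo 8, the wild type with the most Tfap2c (2.16, 0.0056). Without the filter on low counts, edgeR called Elf5, Cdx2, Tfap2c and Sox21 higher in Rnf2 epiblast, and DESeq2 called Elf5 and Sox21. Without embryos 1, 2 and 8 and with no filter, none of them was called and Eomes remained the single call. Those 3 libraries hold the highest levels, so the loss of the calls follows from leaving them out and does not bear on their source. The part of ExE carry-over at dissection was not tested.

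Eed epiblasts gave a smaller version of this pattern. Elf5 was at 18.9 CPM in embryo 8 and at 0 to 2.22 CPM in the other 8, and the same embryo had the highest sum of ExE markers (588 CPM against 168 to 271 CPM), the most Tfap2c (13.3 CPM) and the most Sox21 (2.60 CPM). Cdx2 was at 0 reads in 6 of 9 Eed epiblasts, in all 7 wild types, in all 3 Dnmt1 and in 5 of 6 G9a-Glp. The Dnmt1 epiblasts had 3.28, 7.01 and 3.35 CPM of Elf5, from 5 to 8 reads each, of which 1 was above the wild-type maximum of 3.81 CPM. The pooled read ratio to wild type was 3.72, with an exact 95% interval of 1.89 to 7.38 for counting error only. The CASTxBDF1 wild type, which was not edited, reached as far: Elf5 was at 0.742, 13.0, 0.820 and 8.69 CPM in its 4 epiblasts. In the joint fit, Rnf2 epiblasts exceeded G9a-Glp epiblasts in Elf5 (log2 difference 4.73, edgeR adjusted p = 0.0058), Esrrb (3.93, 0.025) and Tfap2c (2.62, 0.0026), with background calls at 16.4%. Elf5 and Esrrb passed the filter on low counts in that fit but not in Rnf2 epiblast against wild type. These genes were highest in Rnf2 embryos 1, 2 and 8, and the joint fit was not run without these libraries. No regulator differed in the other 3 pairs, where background calls were 3.96% for Eed against Rnf2, 8.07% for Eed against G9a-Glp and 2.31% for G9a-Glp against Dnmt1.

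Whether a knockout changed a regulator differently in the tissues was tested by an interaction term, a test added after the values were seen. Of 32 terms, Sox21 passed in Rnf2 (change in ExE minus change in epiblast -6.12 log2, edgeR adjusted p = 0.0020) and in Eed (-4.50, 0.0035), with background calls at 6.82% and 15.9%. None passed in G9a-Glp or Dnmt1, with background calls at 6.83% and 0.247%. Sox21 passed the filter on low counts here with the ExE libraries in the fit, but in no comparison within epiblast. It had 1 read in wild-type epiblast, 17 in Eed and 138 in Rnf2, of which embryo 8 held 76. Both the sizes of these terms and their calls therefore rest on a wild-type group near 0. The unedited CASTxBDF1 epiblasts, outside this fit, had a mean of 0.872 CPM against 0.737 CPM in Eed. Elf5 in Rnf2 did not pass (-3.30, edgeR adjusted p = 0.087). Without wild-type ExE embryos 6 and 8 the same 2 terms passed (-5.70 and -4.03, edgeR adjusted p of 0.0038 and 0.0071).

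Reads over polymorphisms also gave the allele of origin. No regulator showed a parental bias in the wild type by an edgeR model that separates parent from strain over the reciprocal crosses: 0 of 3 genes tested in epiblast and 0 of 7 in ExE passed, and 0 in each tissue had an unadjusted p below 0.05. Background calls for the parental term were 0.319% and 0.844%. The strain term, in contrast, called 5 of the 7 in ExE, where 49.1% of genes were called. In epiblast, where 42.9% were called, it called 0 of 3 (Eomes, Ets2 and Fgfr2, with edgeR adjusted p of 0.10, 0.058 and 0.45). In ExE, Elf5 had the widest gap: BDF1 reads made up 67.5 ± 9.9% of its reads (SD, n = 7) with a BDF1 mother and 75.7 ± 3.3% (SD, n = 4) with a BDF1 father (log2 ratio of BDF1 to CAST 1.38, edgeR adjusted p = 2.7e-08). With a BDF1 mother no library was near that mean. Embryos 1, 4 and 7 were at 79.7, 75.8 and 78.4%, and embryos 2, 3, 6 and 8 at 60.9, 59.2, 59.5 and 58.9%. A single ratio therefore does not describe each embryo, and the source of the split was not tested. Over all autosomal reads the BDF1 share was 57.1% and 57.0% in ExE of the 2 crosses, so a BDF1 share somewhat above 50% is general in this table.

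Of the other strain calls, those of Eomes, Tfap2c and Fgfr2 were nearer to that general share. BDF1 reads made up 59.6 ± 1.8% and 56.8 ± 2.6% of Eomes reads in the 2 crosses (log2 ratio 0.48, edgeR adjusted p = 5.3e-06), 58.7 ± 4.4% and 57.7 ± 1.0% of Tfap2c reads (0.49, 2.2e-06) and 55.2 ± 5.2% and 54.3 ± 5.2% of Fgfr2 reads (0.28, 0.015), as SD with n = 7 and 4. Sox21 leaned to CAST, with BDF1 shares of 46.6 ± 9.95% and 33.7 ± 7.1% (log2 ratio -0.57, edgeR adjusted p = 0.032). In the knockouts the BDF1 share of Elf5 in ExE was 57.7 to 69.6% by group mean and that of Eomes 51.0 to 59.7%, and these were not tested. Without wild-type BDF1xCAST embryos 6 and 8 the strain term called the same 5 genes in ExE, with adjusted p up to 0.033 from edgeR, and the parental term none.

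**Figure D5:**
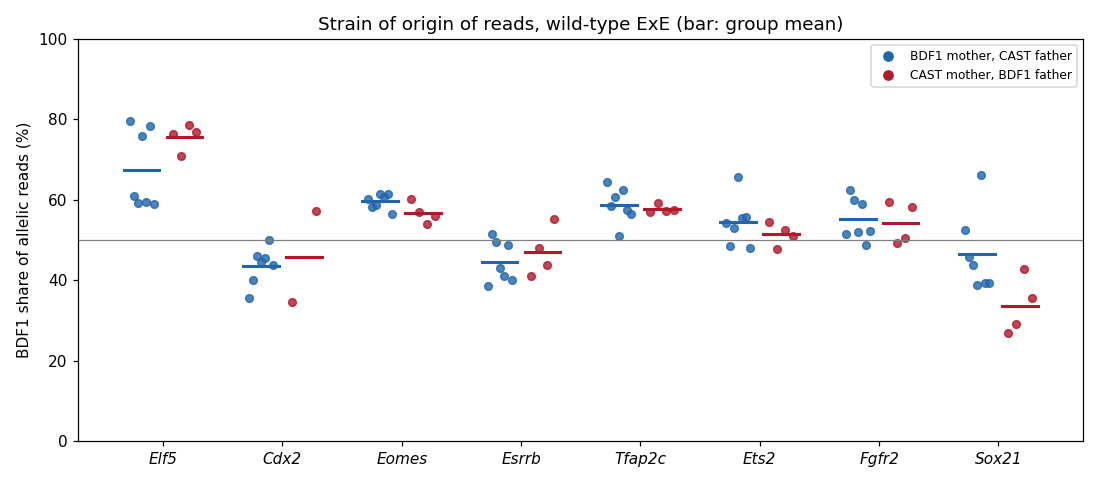
Share of reads from the BDF1 allele in each wild-type ExE library with enough reads (points), by gene and direction of the cross, with the group mean as a bar and a grey line at 50%. Elf5 lies above 50% in all 11 libraries, and Sox21 lies mostly below it.

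The reciprocal crosses did not differ in total level for any regulator. In epiblast 0 of 4 tested passed, with background calls of 0.0103%, and in ExE 0 of 8, with 1.06%. At an unadjusted p below 0.05 the counts were 0 in epiblast and 2 in ExE (Elf5 and Sox21), and DESeq2 called 0 in both. Elf5 had 359, 254, 336 and 535 CPM in CASTxBDF1 ExE (log2 difference 0.48 ± 0.22 SE, edgeR adjusted p = 0.40) and Sox21 had 11.03, 6.45, 5.95 and 7.68 CPM (-0.92 ± 0.38 SE, 0.34). Both ranges overlapped those of BDF1xCAST. Without BDF1xCAST embryos 6 and 8 edgeR called 0 of 8 in ExE as well.

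Genes with the most similar profile were sought by Pearson's r of log2(CPM + 1) over the 12 group means, among 9629 genes that reached 10 CPM in a group. These points share libraries and fall into 2 tissues, so r mostly reflects the tissue difference and is given as a description. Elf5 was most like Tinagl1 (r = 0.993) and Upp1 (0.992), Esrrb like S1pr1 (0.993) and Tmbim1 (0.989), Sox21 like Ccdc3 (0.994) and Zfp42 (0.990), and Tfap2c like Nup62cl (0.994) and Itga7 (0.993). Fgfr2 was most like Exoc6 (0.990) and Hibch (0.989), Ets2 like AU018091 (0.989) and Gm31503 (0.987), and Cdx2 like Slc4a11 (0.983) and Ly6c1 (0.967). Eomes, whose level did not differ between the wild-type tissues by the test, had the least close partners, Fbxo30 (0.906) and Hltf (0.897).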

How the data were processed

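RNA libraries were made from 72 dissected tissues of single embryos with a SMART-Seq v4 and Nextera XT protocol, per the labels' protocols. STAR 2.5.0, HTSeq and the mm10 build are named in the submitters' processing notes. The authors deposited 1 table with, per gene and library, the number of reads over polymorphisms between BDF1 and CAST (raw counts, empty taken as 0), the CAST share minus 0.5, and a score, which the values show to be the signed -log10 of a binomial p. Reads of each allele were recovered from the count and that score and matched 99.6% of 714983 scored values within 0.001. Unmatched values, with 5.61% of the reads, entered the allelic fits through the rounded share.

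Counts were tested with edgeR 4.0.16 (TMM scaling, filterByExpr, quasi-likelihood test, two-sided) in R 4.3.3, with Benjamini-Hochberg adjustment over all genes tested and a threshold of 0.05. Knockout libraries were set against the BDF1xCAST wild type within each tissue, and against each other in a joint fit. The fits were first tested on simulated data. DESeq2 1.42.0 was an alternative, as were the scalings, filters, covariates and left-out libraries given in the closing section. SE is the log2 change divided by the square root of F. P-values measure the spread between embryos. Libraries of 1 group differed beyond sampling noise in every pair.

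The 8 genes, the gene lists and the tests were chosen with earlier results of these data known. Named genes are the 8 members, the targeted genes, for each pathway list up to 2 genes per direction with the largest change, and the 2 genes most like each member. Other genes named were chosen after their values were seen. In the trophoblast network and FGF lists, 1 gene each is not reported here and was left out of the counts and medians. Knockout and wild-type embryos with the same number are not from the same embryo, and their deviations did not correlate above 0.1 in every pair of any comparison, so they were not paired. In the wild-type tissue comparison the numbers mark the same embryo, and pairing gave 6 calls as well. The number in the title and the embryo number of some Eed libraries disagree, and no Eed result was paired across tissues. A bisulfite sample was not analysed here. Intervals are exact and cover counting error only.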

Additional observations from a re-analysis of the deposited data

Results flagged for a closer look

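Single libraries stood far from the rest of their group in 11 of 66 gene and group combinations examined with Dixon's criterion. Chance alone meets it in about 1 of 20 groups of normally distributed values. It was applied to untransformed CPM, which can be skewed, so that rate need not hold here. In epiblast, Elf5 was highest in Rnf2 embryo 8 (50.0 CPM, next 16.7 CPM) and in Eed embryo 8 (18.9 CPM, next 2.22 CPM), and Sox21 in Rnf2 embryo 8 (10.8 CPM, next 1.76 CPM). Both libraries had the largest sum of ExE markers in their group, and the part of these reads in the values was not tested. Wild-type epiblast embryo 8 was highest in Tfap2c (19.1 CPM, next 3.99 CPM) and Ets2 (30.5 CPM, next 20.6 CPM), and G9a-Glp epiblast embryo 5 in Tfap2c (3.50 CPM, next 1.71 CPM).

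In ExE, wild-type embryo 6 was highest in Tfap2c (561 CPM, next 243 CPM) and Ets2 (129 CPM, next 74.3 CPM), and Eed embryo 4 in Ets2 (124 CPM, next 81.3 CPM). Cdx2 was highest in G9a-Glp embryo 4 (15.3 CPM, next 10.1 CPM), and Esrrb was lowest in Rnf2 embryo 4 (4.58 CPM, next 20.3 CPM). The change of Sox21 differed between tissues by the interaction test in Rnf2 (-6.12 log2, ExE minus epiblast) and in Eed (-4.50 log2). Both terms rest on wild-type epiblasts with 1 read of Sox21 in total.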

How the results depend on the processing

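The number of the 8 genes called was within 1.5 times the reported one in 71 of 96 alternatives that left out no single library. The exceptions follow, and the cause was not tested. With library totals the counts were 1 in Dnmt1 ExE, 0 in G9a-Glp ExE, 1 in Rnf2 ExE and 3 in Eed ExE. That scaling moved the share of higher calls over all genes from 49.2% to 71.3% in Dnmt1 epiblast, 46.2% to 72.5% in Dnmt1 ExE, 53.8% to 72.1% in Eed epiblast and 55.6% to 74.1% in Eed ExE. With the replicate block, which pairs embryos that share only a number, the counts were 3 in Dnmt1 ExE and 0 in Dnmt1 epiblast, G9a-Glp epiblast and both Rnf2 tissues. Thinning gave 0 in Dnmt1 epiblast and in both G9a-Glp tissues. Rnf2 epiblast gave 3 with DESeq2, 5 with no filter, 2 with all groups in 1 fit, 2 with sex as a term and 2 without wild-type embryo 8, and Rnf2 ExE gave 4 with no filter. Dnmt1 ExE gave 1 with sex as a term. Leaving out G9a-Glp epiblast embryos 2 and 7, highest in Ehmt1 mRNA, gave 0. Leaving out Rnf2 ExE embryos 2, 5 and 6, highest in Rnf2 mRNA, also gave 0, with only embryos 4 and 7 left. For short, Rnf2 ExE embryos 2, 5 and 6 are called doubtful labels below. Rnf2 mRNA in embryos 2 and 5 was nevertheless below every wild-type ExE library except embryos 6 and 8. Other libraries within the wild-type range of their targets were kept in these fits. Leaving out G9a-Glp ExE embryo 4, high in epiblast markers, gave 0. Without wild-type ExE embryos 6 and 8, which stood apart, Dnmt1 ExE gave 1. Differences between knockouts in epiblast numbered 10 with no filter and 9 with sex as a term.

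Leaving out 1 library at a time gave 0 to 1 calls in Dnmt1 epiblast, in G9a-Glp epiblast and in G9a-Glp ExE, 0 to 3 in Rnf2 ExE and 1 to 2 in Eed epiblast. Wild-type epiblasts were not left out in turn, apart from embryo 8.

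Signs changed only for changes that were not called. Ets2 became 0.17 with library totals, 0.32 with the replicate block and 0.10 without embryo 1 in Dnmt1 ExE, -0.12 thinned in G9a-Glp epiblast, -0.0090 thinned, -0.12 without embryos 1, 2 and 8 and -0.071 without these and with no filter in Rnf2 epiblast, 0.012 with sex, 0.020 with the block and 0.10 without doubtful labels in Rnf2 ExE, and 0.047 with library totals and 0.014 without wild-type embryo 8 in Eed epiblast. Eomes became 0.062 with the block in G9a-Glp epiblast, 0.0048 with library totals in G9a-Glp ExE and 0.69 with the block between crosses in epiblast. Tfap2c became 0.0025 with the block in G9a-Glp ExE, 0.026 without doubtful labels in Rnf2 ExE and -0.044 with library totals between crosses in epiblast, and Elf5 became -0.0042 without doubtful labels in Rnf2 ExE. Without wild-type embryos 6 and 8, Ets2 became 0.33 in Dnmt1 ExE, 0.31 in Rnf2 ExE and 0.17 in Eed ExE, Tfap2c 0.14 in G9a-Glp ExE and 0.080 in Rnf2 ExE, and Eomes 0.11 and Sox21 0.091 in G9a-Glp ExE. With 1 library left out, log2 changes of Ets2 ranged from -0.22 to 0.35 in Dnmt1 epiblast, -0.20 to 0.17 in Dnmt1 ExE, -0.073 to 0.10 in G9a-Glp epiblast, -0.17 to 0.16 in Rnf2 ExE and -0.35 to 0.0077 in Eed ExE. Those of Tfap2c ranged from -0.36 to 0.14 in G9a-Glp ExE, -0.60 to 0.076 in Rnf2 ExE, and -0.21 to 0.31 and -0.47 to 0.34 between crosses in epiblast and ExE. Those of Eomes ranged from -0.23 to 0.049 in G9a-Glp ExE, and -0.29 to 0.089 and -0.43 to 0.0050 between crosses in epiblast and ExE. Esrrb ranged from -0.11 to 0.66 in Dnmt1 ExE and -0.78 to 0.15 between crosses in ExE, Fgfr2 from -0.64 to 0.088 in Rnf2 epiblast and Elf5 from -0.12 to 0.49 in Rnf2 ExE. Leaving out libraries high in other-tissue markers was not run for Dnmt1, where 1 library would remain, for Rnf2 and Eed epiblast, where none would, or for Rnf2 and Eed ExE, where none was high. Depth limits Cdx2 in both tissues and Elf5, Esrrb and Sox21 in epiblast.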
